A study of Solanum pimpinellifolium with 6 samples.

Results

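The miRNAs from miR6022 to miR6027 are small RNAs of the Solanaceae, the plant family of tomato, potato and tobacco. All entries of the deposited miRNA list that carry one of these names were taken, together with all degradome sites listed for them. This gave 16 distinct mature sequences in 17 entries, of 629 distinct sequences in 759 entries, and 9 of 362 degradome sites. The libraries were made from the second fully expanded leaf of seedlings of LA2093, an accession of the wild tomato *Solanum pimpinellifolium* described as tolerant of heat. The seedlings had spent 8 h at day/night temperatures of 26/18 °C (normal, NT), 33/33 °C (moderately elevated, MET) or 40/40 °C (acutely elevated, AET), and both elevated groups were given extra water daily. Leaves of several seedlings were mixed in each sample, and which mixtures entered each library is not stated. There was 1 sRNA library and 1 degradome library for each temperature, so no difference below could be checked against replicates, and every test sets one library against another, not one temperature against another. Whole leaves were used and no transcript levels were analysed here, so the tissue could not be checked against leaf markers, and fewer cells of a type cannot be told apart from less small RNA per cell. Values for the 3 libraries are given in the order NT, MET, AET throughout.

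Plant miRNAs guide an argonaute protein to a complementary mRNA, which is then cut opposite the middle of the miRNA. In tomato and its relatives, miR6022 and miR6023 are known for matching transcripts of receptor-like proteins, the cell-surface immune receptors to which the Cf proteins against leaf mould belong. miR6024, miR6026 and miR6027 are known for matching transcripts of NBS-LRR proteins, the intracellular immune receptors, and miR6026 also for matching DCL2, a Dicer-like enzyme. Plant miRNAs of 22 nt can start the production of secondary, phased siRNAs from the transcript they cut.

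All 16 mature sequences are printed 5′ to 3′ as the deposited list has them, with T for U, because the results turn on which form of a family moved. Capitals mark the seed, bases 2 to 8, by which related miRNAs are grouped.
spi-miR6022: tGGAAGGGagaatatccagga
spi-miR6022-p5: cCTGAACGgaacaatacgatc
spi-miR6023-p3: tTACTACGgtcaggaatcttat
spi-miR6023: tTCCATGAaagagtttttggat
spi-miR6023-p5: aAGATCTTttaccgtagtaatc
spi-miR6024, 21 nt with T first: tTTAGCAAgagttgttttacc
spi-miR6024, 20 nt: tTAGCAAGagttgttttacc
spi-miR6024, 21 nt with C first: cTTAGCAAgagttgttttacc
spi-miR6024-5p_stu: aGAAACAAcacttgctaaagga
spi-miR6025_stu: tACCAATAattgagataacatc
spi-miR6025-p3_stu: tTATTGAAccttgatgttatc
spi-miR6025b_nta: tGCCAACTattgagatgacatc
spi-miR6026: tTCTTGGCtagagttgtattgc
spi-miR6026-p5: aATACAACtatagccaagacaa
spi-miR6027-5p: aTGGGTAGcacaaggattaatg
spi-miR6027-3p: tGAATCCTtcggctatccata

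Of these sequences, 9 were 22 nt long (56.2%), against 84 of the 629 listed (13.4%), and none was 24 nt long, against 202 listed (32.1%). T was the first base of 10 (62.5%) and of 239 listed sequences (38.0%). The 22-nt forms held 33.2%, 30.3% and 29.6% of the reads of the 16 sequences, the most abundant of which is 21 nt long. Almost every sequence had a seed of its own. TTAGCAA was shared by both 21-nt forms of spi-miR6024, which differ by T1C, counted from the 5′ end. GGAAGGG was shared by spi-miR6022 and spi-miR528-5p_ata, a listed sequence of another family with 0, 1 and 0 reads. The 20-nt spi-miR6024 starts at base 2 of the 21-nt form with T first, which moves its seed by 1 base. The list also gives each sequence a miRBase mark, which the study's methods do not define. It is Yes for spi-miR6022, spi-miR6023, spi-miR6025b_nta, spi-miR6026 and spi-miR6027-5p. It is Diff for every miR6024 sequence, spi-miR6025_stu and spi-miR6027-3p. It is New for spi-miR6022-p5, spi-miR6023-p3, spi-miR6023-p5, spi-miR6025-p3_stu and spi-miR6026-p5.

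The hairpins were listed at chr11:3158675-3158925 (plus strand) for miR6022, chr12:64810612-64810845 (minus) for miR6023, chr1:74999714-74999830 (minus) for miR6024, chr4:421926-422077 (minus) for miR6025, chr1:832340-832581 (plus) for miR6026 and chr10:62182513-62182675 (plus) for miR6027. No source used here names the genome build of these positions, so no gene is given at them. Spi-miR6023 and the 21-nt spi-miR6024 with T first are listed without a position, and their precursors equal those of spi-miR6023-p3 and spi-miR6024-5p_stu apart from masked letters. The 20-nt spi-miR6024 has 2 listed precursors and the form with C first has 1, and each of these 3 precursors holds its miRNA only with 1 mismatch.

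In the folds predicted for the precursors, not all listed sequences lay opposite each other. In the precursor of miR6023, spi-miR6023 spans bases 21 to 42 and spi-miR6023-p5 bases 43 to 64, so that they follow each other on the same arm with starts 22 nt apart. Spi-miR6023-p5 formed 18 pairs with spi-miR6023-p3 at bases 172 to 193, whereas spi-miR6023 formed 2 pairs with it and lay opposite bases 192 to 212. In the precursor of miR6022, spi-miR6022 at bases 211 to 231 lay opposite bases 21 to 41, next to spi-miR6022-p5 at bases 2 to 22, with which it shared 2 pairs. The listed sequences of miR6024, miR6026 and miR6027 formed 17, 18 and 17 pairs with each other, and those of miR6025 formed 9.

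The 16 sequences took 4999 of 301702 listed raw reads in NT (1.66%, exact 95% binomial interval 1.61% to 1.70%), 15552 of 424963 in MET (3.66%, 3.60% to 3.72%) and 9569 of 394910 in AET (2.42%, 2.38% to 2.47%). Their share was highest in MET, and the 3 intervals did not overlap. Spi-miR166a, the most abundant listed miRNA, alone held 62.9%, 52.5% and 56.2% of the listed reads. With it left out, the share of the 16 sequences was 4.47%, 7.70% and 5.54%. All intervals cover counting error only, since each temperature has 1 library. The reads carry no molecular identifiers, so reads copied in PCR count as separate and the intervals can be too narrow.

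The 21-nt spi-miR6024 with T first was the most abundant of the 16 in every library, and ranked 11, 8 and 11 among all listed sequences. Together with spi-miR6027-5p, spi-miR6022 and spi-miR6027-3p it held 81.5%, 83.9% and 75.1% of the reads of the 16. The order further down was less certain. The 95% interval of the ratio between neighbours in this order held 0 on the log2 scale for 6 of 15 pairs in NT, 3 of 15 in MET and 6 of 14 in AET. Spi-miR6027-3p (887 reads) and spi-miR6023-p3 (855 reads), for instance, could not be ordered in AET. By normalized reads, the authors' raw reads times a factor for each library, 9 sequences were highest in MET, 6 in AET and 1 in NT.

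**Figure D1:**
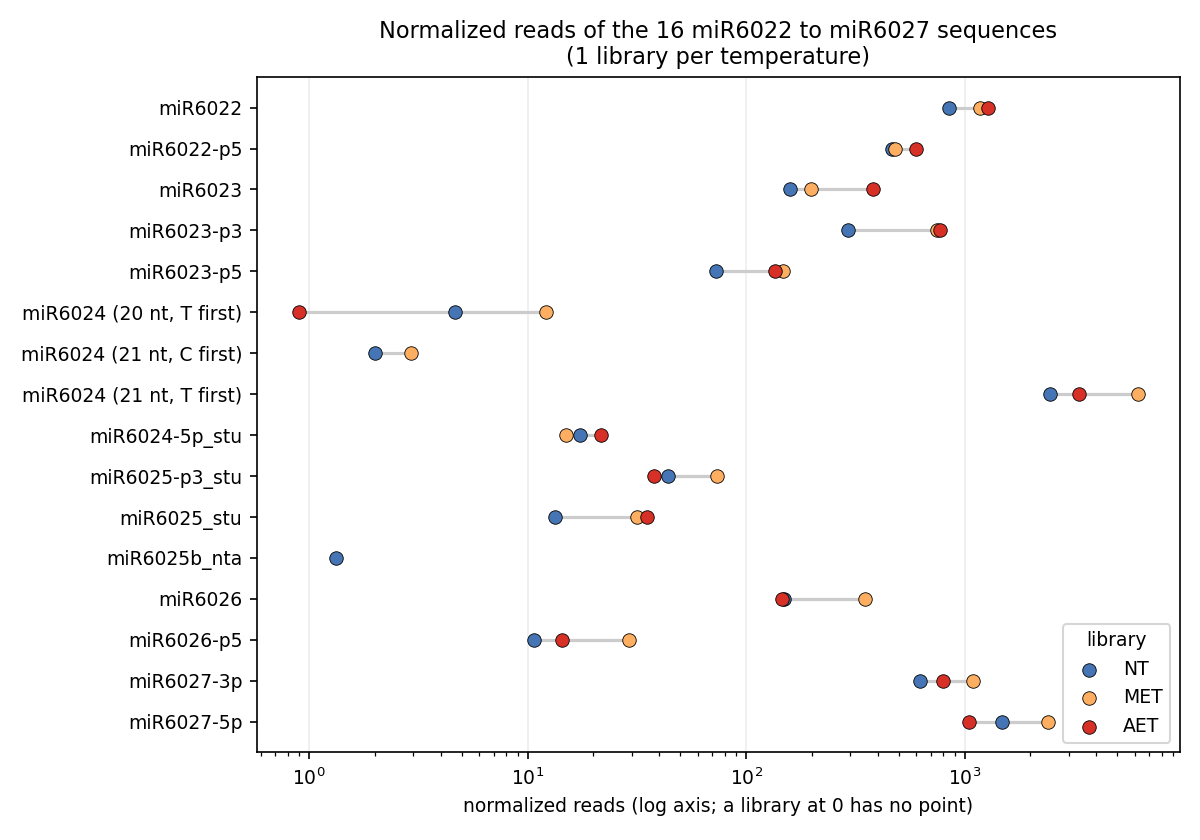
Normalized reads (log axis) of each of the 16 sequences in the NT, MET and AET libraries, 1 point per library, with a grey line from the lowest to the highest. The 21-nt spi-miR6024 lies farthest right at 2449, 6201 and 3328 normalized reads, and spi-miR6025b_nta has only its NT point.

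A sequence was called higher or lower by the rule in the study's methods, which asks for p values of at most 0.05 both by Fisher's exact test (two-sided) and by chi-square, and for a log2 ratio of normalized reads of at least 1 in either direction, unadjusted for the number of tests. From NT to MET, 6 of the 16 were called higher and 0 lower, where 6.45% of all 605 sequences with reads were called higher and 5.29% lower. Among the 315 sequences that reached 10 normalized reads, 33 were called higher and 28 lower. Over the whole list the 39 higher and 32 lower calls became 26 and 3 when reads were scaled to valid reads, 67 and 20 on that scale with the mean depth kept, and 23 and 42 without spi-miR166a, and none of the 16 was called lower on any of these scales. Unless the mean depth is kept, scaling to valid reads puts fewer reads into the tests, and calls on few reads can be lost for that reason alone. With the depth kept, 9 of the 16 were called higher from NT to MET, where 67 of 605 sequences were, 4 higher from NT to AET, where 68 of 597 were, and 6 lower from MET to AET, where 74 of 599 were. The log2 ratios of the 15 sequences with reads in both libraries had a median of 0.79, and 14 lay above 0. Over 497 listed sequences the median was -0.09 and 45.9% lay above 0.

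From NT to AET, 3 of the 16 were called higher and 0 lower, where 10.9% and 8.71% of 597 sequences were called in these directions. Among the 318 sequences that reached 10 normalized reads, 54 were called higher and 45 lower. The median log2 ratio was 0.40 over 14 of the 16 and 0.09 over 462 listed sequences. From MET to AET, 0 of 15 were called higher and 4 lower, where 11.9% and 9.52% of 599 sequences were called. Among the 317 that reached 10 normalized reads, 53 were called higher and 51 lower. The median log2 ratio was -0.28 over 14 of the 16 and 0.02 over 474 listed sequences. Under median-ratio scaling, 1 was called higher and 3 lower, where 68 and 53 of 599 sequences were. Without spi-miR166a the counts were again 1 and 3, where 74 and 50 of 598 sequences were called. These comparisons share libraries and are set side by side only.

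**Figure D2:**
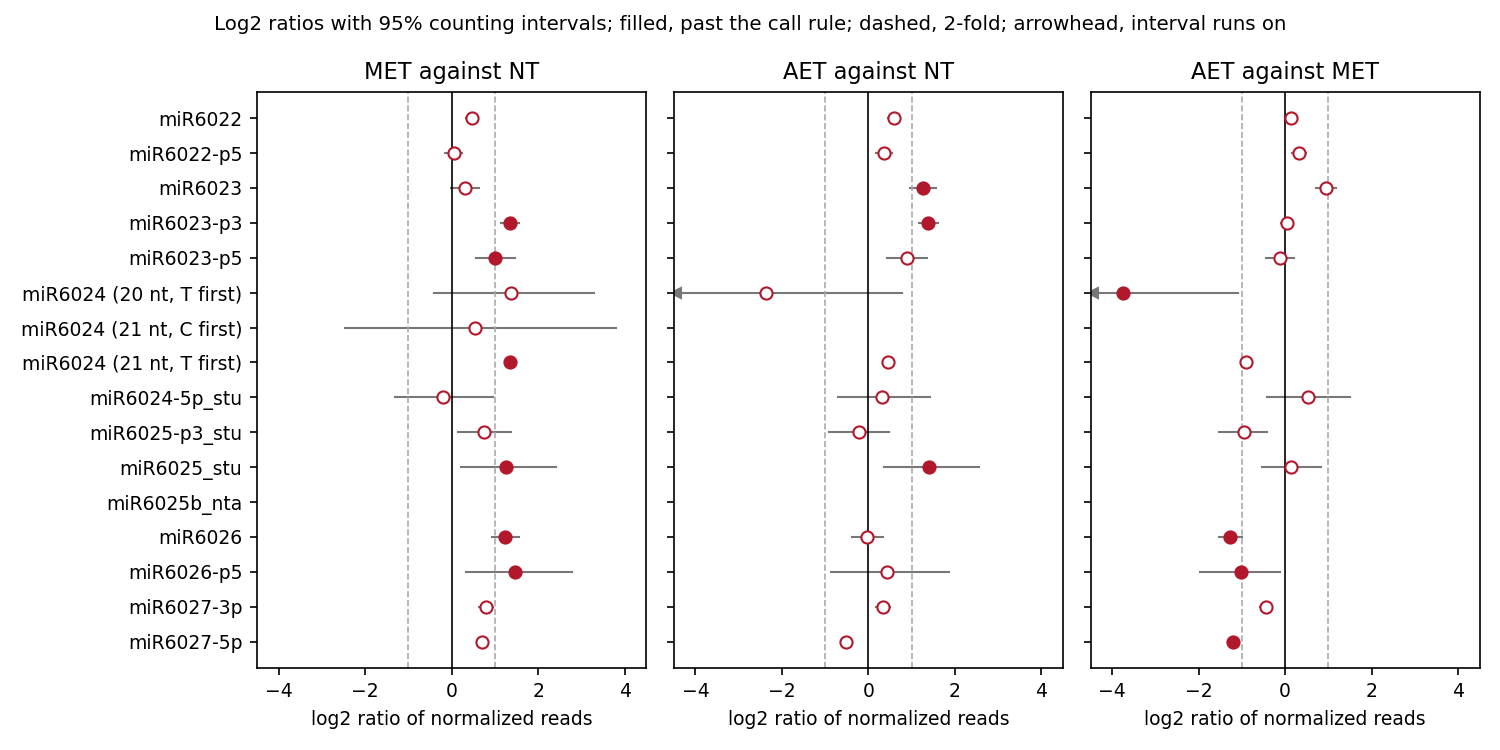
Log2 ratio of normalized reads of each sequence in one panel each for NT to MET, NT to AET and MET to AET, with exact 95% counting intervals as bars, filled points for called sequences and dashed lines at 2-fold. From NT to MET the 6 filled points lie above 0, from MET to AET the 4 filled points lie under 0, and a sequence with 0 reads in a library has no point.

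miR6022, a family known for matching receptor-like protein transcripts, was not called in any comparison. Spi-miR6022 had 639, 1412 and 1431 raw reads. Its log2 ratio to NT was 0.47 in MET (95% interval 0.33 to 0.61) and 0.60 in AET (0.46 to 0.73), so both intervals lay above 0 and short of 2-fold. Spi-miR6022-p5 had 349, 574 and 666 raw reads. Its log2 ratio to NT was 0.37 in AET (0.18 to 0.56) and 0.04 in MET (-0.15 to 0.24), and the latter turned to -0.058 under median-ratio scaling and to -0.13 without spi-miR166a.

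miR6023 is the other family known for receptor-like protein transcripts. Of its 3 sequences, 2 were called higher in MET than in NT and 2 in AET than in NT. The 2 called in MET, spi-miR6023-p3 and spi-miR6023-p5, carry the miRBase mark New, and spi-miR6023 carries Yes. Spi-miR6023-p3 had 221, 897 and 855 raw reads. It was called in both, with log2 ratios of 1.35 (1.13 to 1.57) in MET and 1.39 (1.17 to 1.61) in AET, and both intervals lay wholly beyond 2-fold. Spi-miR6023 had 120, 238 and 426 raw reads. It was called in AET (1.26, 0.97 to 1.57) and not in MET (0.31, -0.01 to 0.64). From MET to AET it differed by 0.95 (0.72 to 1.18), short of the threshold, and passed it under median-ratio scaling (1.06) and without spi-miR166a (1.07). Spi-miR6023-p5 had 55, 176 and 151 raw reads. Its call in MET (1.004, 0.56 to 1.47) sat on the threshold and was lost under median-ratio scaling (0.90), without spi-miR166a (0.83) and with 1 normalized read added (0.99). In AET it had a log2 ratio to NT of 0.89 (0.44 to 1.36) and was called when reads were scaled to valid reads (1.03).

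miR6024, known for matching NBS-LRR transcripts, consisted almost wholly of its 21-nt form with T first, which had 1842, 7442 and 3706 raw reads. The miRBase mark of that form is Diff, and whether it matches such transcripts was not tested. That form was called higher in MET than in NT, with a log2 ratio of 1.34 (1.27 to 1.41). In AET its log2 ratio to NT was 0.44 (0.36 to 0.52), and from MET to AET it was -0.90 (-0.96 to -0.84). Neither was called, although the latter was, at -1.18, when reads were scaled to valid reads. Spi-miR6024-5p_stu, from the same precursor, had 13, 18 and 24 raw reads, and the intervals of all its ratios held 0. The 20-nt form had 3.5, 14.5 and 1 reads, fractions that arise where a read was shared between places. It was called lower in AET than in MET at -3.75 (-9.19 to -1.10), a call that rests on 1 read in AET and was lost when reads were scaled to valid reads, though not with the mean depth kept. The form with C first had 1.5, 3.5 and 0 reads, too few for a fold against the floor of 3 reads.

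miR6026, known for matching NBS-LRR and DCL2 transcripts, was called higher in MET than in NT and lower in AET than in MET for both its sequences. Spi-miR6026 had 112, 420 and 162 raw reads. Its log2 ratio was 1.23 (0.93 to 1.55) from NT to MET and -1.27 (-1.54 to -1.002) from MET to AET. Between NT and AET it was -0.03 (-0.39 to 0.33), with a sign that turned to 0.11 when reads were scaled to valid reads. Spi-miR6026-p5 had 8, 35 and 16 raw reads, with log2 ratios of 1.46 (0.32 to 2.77) from NT to MET and -1.02 (-1.97 to -0.13) from MET to AET. Both calls were lost when reads were scaled to valid reads, though not with the mean depth kept, and the second was also lost with Benjamini-Hochberg adjustment, under median-ratio scaling, without spi-miR166a and with 1 normalized read added.

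miR6027, also known for matching NBS-LRR transcripts, had its most normalized reads in MET on both arms. Spi-miR6027-5p had 1119, 2890 and 1163 raw reads. It was called lower in AET than in MET, with a log2 ratio of -1.21 (-1.30 to -1.11). Its log2 ratio to NT was 0.69 in MET (0.59 to 0.80) and -0.51 in AET (-0.63 to -0.39), neither of them called. Spi-miR6027-3p had 472, 1306 and 887 raw reads and was not called in any comparison. Its log2 ratio was 0.79 (0.64 to 0.95) from NT to MET, 0.34 (0.18 to 0.51) from NT to AET and -0.45 (-0.58 to -0.33) from MET to AET. When reads were scaled to valid reads, both arms were called from NT to MET, at 1.12 and 1.22.

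miR6025 was the least abundant of the 6 families in NT, MET and AET. Spi-miR6025-p3_stu had 33, 88 and 42 raw reads and was not called, with log2 ratios of 0.74 (0.15 to 1.36) from NT to MET and -0.96 (-1.53 to -0.41) from MET to AET. Both were called, at 1.17 and -1.24, when reads were scaled to valid reads with the mean depth kept. Spi-miR6025_stu had 10, 38 and 39 raw reads and was called higher than in NT both in MET (1.25, 0.22 to 2.42) and in AET (1.40, 0.37 to 2.56). Both intervals reach far below 2-fold, and both calls were lost when reads were scaled to valid reads, though not with the mean depth kept. Spi-miR6025b_nta had 1, 0 and 0 reads, too few for a fold.

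Summed by family, the families known for NBS-LRR transcripts had their most normalized reads in MET and those known for receptor-like protein transcripts in AET. Each sum takes all listed sequences of a family, and which of them match such transcripts was not tested. Spi-miR6023-p3 held 55.8%, 68.4% and 59.7% of the reads of miR6023, and spi-miR6027-5p 70.3%, 68.9% and 56.7% of those of miR6027. The degradome sites listed for these families belonged to spi-miR6023 and spi-miR6027-3p instead. miR6024 summed to 2473, 6231 and 3350 normalized reads, miR6026 to 159.5, 379.1 and 159.8, and miR6027 to 2115, 3496 and 1841. miR6022 summed to 1313, 1655 and 1883, and miR6023 to 526, 1092 and 1286, an order between MET and AET that turned round when reads were scaled to valid reads. The log2 ratio from MET to AET was -0.92 (-0.96 to -0.87) for the NBS-LRR families together. It was 0.21 (0.14 to 0.27) for the receptor-like protein families and turned to -0.079 on the scale of valid reads. Free of any such scale, miR6022 and miR6023 held 27.9% (26.7% to 29.2%) of the raw reads of these 5 families in NT, 21.4% (20.7% to 22.03%) in MET and 37.2% (36.2% to 38.2%) in AET. The families were grouped with results of these data known, so no test is given.

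**Figure D3:**
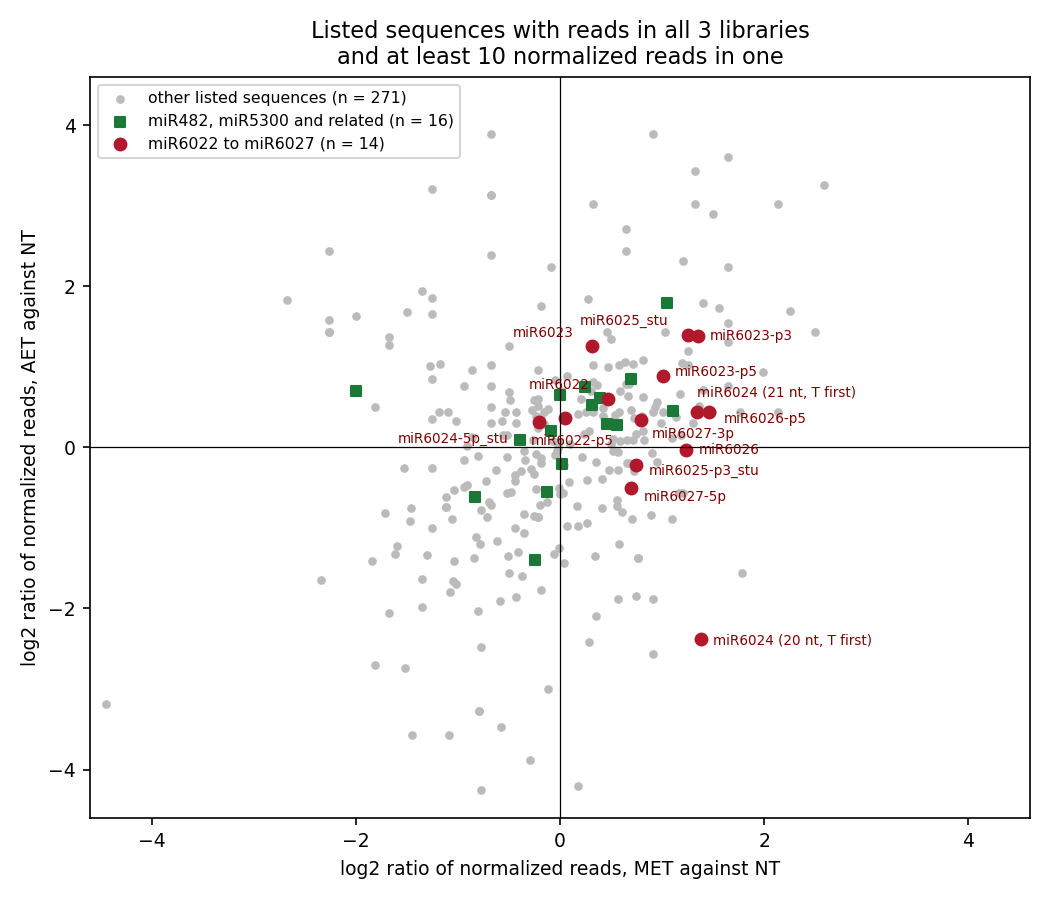
Log2 ratio of normalized reads from NT to MET (x axis) and from NT to AET (y axis). Shown are 301 listed sequences that had reads in every library and reached 10 normalized reads, with 14 of the 16 sequences in red. Green squares are miR482, miR5300 and the other names of the comparison list described below. Spi-miR6023-p3 and spi-miR6025_stu lie high on both axes, and spi-miR6027-5p lies above 0 on the x axis and below it on the y axis.

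Some other miRNAs known for matching resistance gene transcripts, or listed beside them, were taken by name as miR482, miR2118, miR472, miR5300, miR6019, miR6020 and miR1919, and came to 26 sequences. None of the 26 is named miR2118 or miR472 here, and the choice of names may not be complete. Many of them, such as spi-miR482e-3p, spi-miR482b and spi-miR5300, were 22 nt long as well. From NT to MET, 2 of 25 were called higher and 0 lower, with a median log2 ratio of 0.08 over 18. From NT to AET, 2 of 24 were called higher and 1 lower, with a median of 0.28 over 19. From MET to AET, 2 of 26 were called higher and 1 lower, with a median of 0.21 over 20. Their most abundant sequence, spi-miR482e-3p, had 12536, 32268 and 33400 raw reads and was not called, with log2 ratios of 0.69, 0.85 and 0.16 in these comparisons. The difference between these and the 16 sequences was not tested.

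For each of the 4 most abundant of the 16, the sequences with the nearest pattern were taken from 85 others with reads in every library and at least 100 normalized reads in one, by the distance over both log2 ratios to NT. The 21-nt spi-miR6024 lay nearest to spi-miR396a-3p (distance 0.08), which had 385, 1573 and 815 raw reads, and to PC-49-3p (0.14), which had 520, 2045 and 951. Spi-miR6027-5p lay nearest to spi-miR164a-5p (0.22) and spi-miR397 (0.25). Spi-miR6027-3p lay nearest to spi-miR9470-3p (0.05) and spi-miR9471a-p5 (0.14). Spi-miR6022 lay nearest to spi-miR5300 (0.08) and spi-miR162 (0.12). These distances rest on 3 libraries.

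How the reads of a precursor divide between its sequences does not depend on library scaling. It was tested for 8 pairs by Fisher's exact test on raw reads, with Benjamini-Hochberg adjustment over all pairs of the list, and called at an adjusted p of at most 0.05 with an odds ratio of at least 2. Of the 8, 5 are pairs that the list gives as the arms of a hairpin, and 3 are other pairs from 1 precursor that reuse sequences of miR6023 and miR6024. From NT to MET, 0 of the 5 listed pairs were called, where 3.20% of all 125 listed pairs were called, and 1 of the 3 others was called. Of the reads of spi-miR6023 and spi-miR6023-p3 together, spi-miR6023 held 35.2% (30.1% to 40.5%), 20.97% (18.6% to 23.5%) and 33.3% (30.7% to 35.9%). Its share in MET was below that in NT with a log2 odds ratio of -1.03 (-1.43 to -0.64, adjusted p = 1.17e-05 by Fisher's exact test).

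From NT to AET, 0 of the 8 pairs were called (9.65% of all listed pairs), and 1 had an adjusted p of at most 0.05. This was miR6027, of whose reads spi-miR6027-5p held 70.3%, 68.9% and 56.7%. The share in AET was lower, with log2 odds ratios of -0.85 (-1.06 to -0.65) from NT and -0.75 (-0.91 to -0.60) from MET, both short of the 2-fold threshold on the odds ratio.

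Between MET and AET, 1 of the 5 listed pairs was called, where 21.8% of all listed pairs were, and 2 of the 3 others were called. Spi-miR6023 went from 57.5% to 73.8% of its reads with spi-miR6023-p5 (log2 odds ratio 1.06, 0.66 to 1.46). In NT its share was 68.6%, so MET was the lowest. Spi-miR6025_stu went from 30.2% to 48.1% of its reads with spi-miR6025-p3_stu (1.10, 0.21 to 2.00, adjusted p = 0.0447 by Fisher's exact test), on 126 and 81 reads. In NT its share was 23.3%. Spi-miR6024-5p_stu went from 0.241% to 0.643% of its reads with the 21-nt spi-miR6024 (1.42, 0.48 to 2.39), with 18 and 24 reads of its own. In NT its share was 0.701%, so MET was the lowest here too. The pairs of miR6022, of miR6026 and of spi-miR6023-p5 with spi-miR6023-p3 were not called in any of the 3 comparisons.

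**Figure D4:**
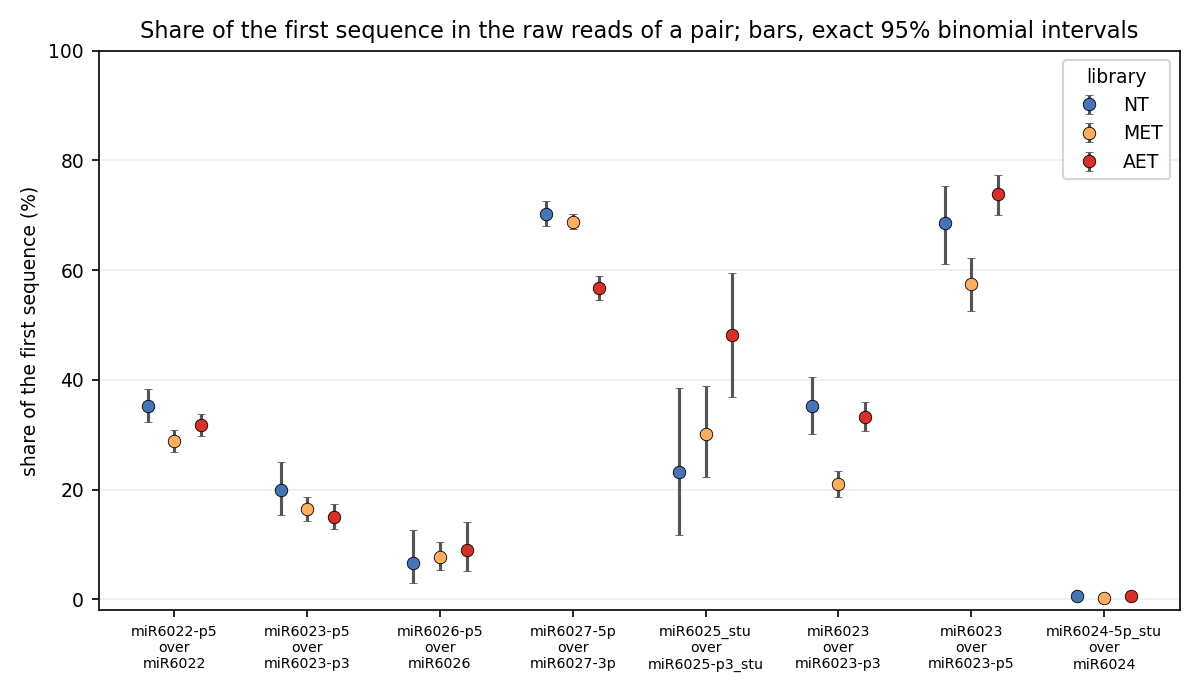
Share (%) of the first named sequence in the raw reads of each pair from 1 precursor, in the NT, MET and AET libraries, with exact 95% binomial intervals as bars. Spi-miR6027-5p stands at 70.3%, 68.9% and 56.7%, and spi-miR6023 over spi-miR6023-p3 at 35.2%, 20.97% and 33.3%.

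Degradome sequencing reads the 5′ ends of cut mRNAs, and a site is listed where such an end lies opposite the middle of an aligned miRNA. The 9 sites lay on 9 transcripts and belonged to 4 of the 16 sequences. The other 12 had no listed site, among them the 21-nt spi-miR6024 and spi-miR6027-5p. All 9 ends lay opposite base 10 from the 5′ end of the miRNA, as did 305 of the 362 listed sites (84.3%). Of the 9, 8 had at most 1 read in any library and 1 had 2 reads. A count of 1 read has an exact 95% Poisson interval of 0.0253 to 5.57 reads and a count of 0 one that reaches 3.69, so no difference between libraries was detectable at this depth. The 10 degradome p-values in the deposited table for these sites ran from 0.286 to 0.984 and none was at most 0.05, where 55 of the 362 sites (15.2%) had one that low. None was in category 0 or 1, the classes of the highest peaks on a transcript, where 48 of the 362 sites (13.3%) were.

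Spi-miR6022 was listed on 4 transcripts annotated as RLP32, in Arabidopsis a receptor-like protein that senses a bacterial translation factor, each with an alignment score of 1, where lower scores mean fewer mismatches. Of the 362 sites, 21 (5.80%) scored 1 or less. On Solyc01g005760.2.1 it aligned to transcript bases 1243 to 1263 with the end at 1254, on Solyc01g005720.2.1 to bases 513 to 533 with the end at 524, and on Solyc01g005870.1.1 to bases 1186 to 1206 with the end at 1197. These 3 sites had 0, 1 and 0 reads each. On Solyc01g005730.2.1 it aligned to bases 1190 to 1210 with the end at 1201, with 1, 0 and 1 reads. The 3 values of 1 read in MET are listed as category 2, although the study's methods keep category 4 for single reads, and 6 of the 177 category 2 values in the list stand on 1 read or less. Reads were not whole numbers at 36 of the 362 sites, and at 0 of the sites of the families described here. Whether the 3 values of 1 read in MET come from separate reads or from reads that match several similar transcripts was not tested.

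The other 5 sites scored from 2.5 to 4. Spi-miR6022 was also listed on MOS7 (Solyc11g008110.1.1, bases 129 to 148, end at 139), in Arabidopsis a nucleoporin needed in immunity, with a score of 4 and 1, 0 and 0 reads. Spi-miR6027-3p was listed on RPP13 (Solyc09g098130.1.1, bases 2417 to 2437, end at 2428), in Arabidopsis an NBS-LRR protein against downy mildew, with a score of 2.5 and 0, 0 and 1 reads. Its second site lay on DRP, annotated as a resistance protein of the CC-NBS-LRR class (Solyc10g047320.1.1, bases 1286 to 1306, end at 1297), with a score of 3.5 and 1, 0 and 0 reads. Among the 9 sites, these 2 were on NBS-LRR transcripts. Spi-miR6023 was listed on MHCR, annotated as related to myosin heavy chain (Solyc09g055760.2.1, bases 1393 to 1415, end at 1406), with a score of 3.5 and 1, 0 and 0 reads. Spi-miR6025-p3_stu was listed on SCO1, a translation elongation factor (Solyc08g079180.2.1, bases 1646 to 1665, end at 1656), with a score of 3.5 and 2, 0 and 0 reads.

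Transcripts whose symbol starts like that of a receptor or resistance gene (such as RLP, RPP, RPM, RGA, LRR or MOS) carried 24 listed sites, 6 of them described above and 18 of other miRNAs. This list of symbols does not hold DRP, so it misses at least that resistance gene. Of these 18, 1 had more than 1 read in a library and 0 had a degradome p-value of at most 0.05. PC-49-3p, a predicted miRNA, was listed on 2 of the 4 RLP32 transcripts with a score of 3.5 and 0.167, 0 and 0 reads at each. Its ends, at base 2073 of Solyc01g005730.2.1 and base 1699 of Solyc01g005720.2.1, lay 872 and 1175 bases from those of spi-miR6022.

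**Figure D5:**
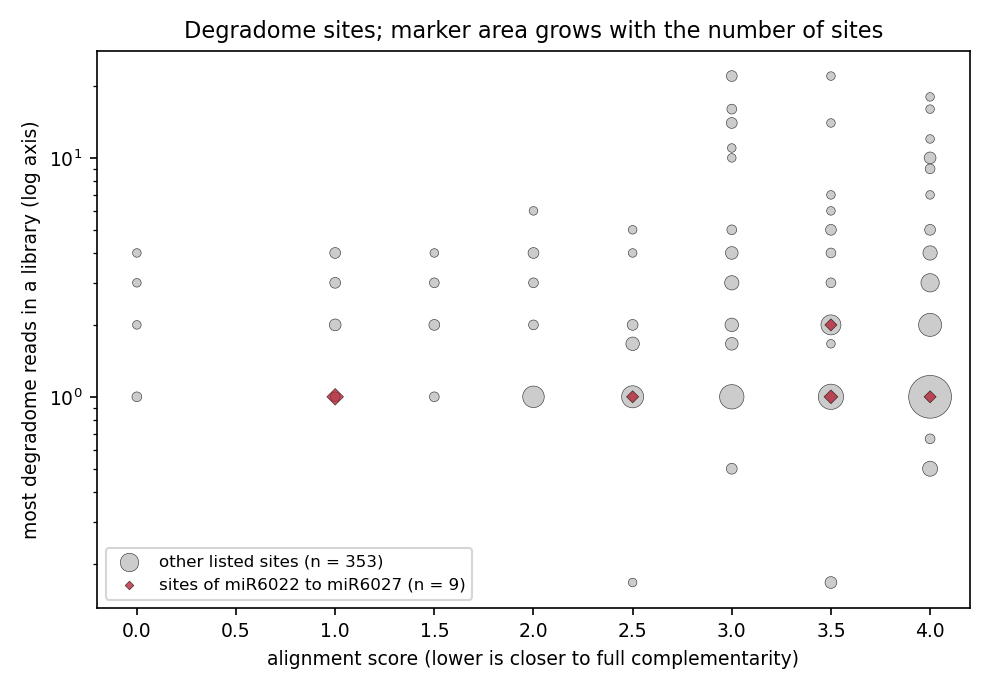
Alignment score (x axis) and most degradome reads in any library (y axis, log) for the 362 listed sites, with the 9 sites described as red diamonds and a marker area that grows with the number of sites at a point. The 9 sites lie at 1 read, or at 2 reads for SCO1, and the 4 RLP32 sites share the point at a score of 1.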

How the data were processed

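The authors processed the sRNA reads with ACGT101-miR, keeping a narrow range of lengths and removing reads that match mRNA, other RNA classes or repeats, which can also remove a miRNA that overlaps a gene model. The deposited raw reads are estimated counts, since a read at several places is split, and were rounded to whole numbers for the tests on raw reads. The deposited normalized reads are these times 1 factor per library (1.33, 0.833 and 0.898 for NT, MET and AET) and were rounded likewise. Degradome sites came from CleaveLand. Their alignment score, category, p-value and tag abundance were used as deposited, and abundances were turned back into reads with the library totals. The deposited tables that hold only the authors' own log2 ratios and p-values were not used.

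Totals in the tests were the normalized reads of all listed entries. A sequence with several entries took the highest of their values in each library. Ratios carry exact conditional binomial 95% intervals from raw reads. A library at 0 was set to 3 reads for the call. Precursors, from the study's supplementary tables, were folded with RNAfold 2.7.2. All 16 sequences and their sites are named. Other sequences are named where they share a seed, lead the comparison list or lie nearest to one of the 4 most abundant, and spi-miR166a and PC-49-3p after their values were seen. Members and lists were chosen with earlier results of these data known. Alternatives covered scaling, test totals, adjustment, filters, thresholds and rounding. Python 3.11.15, scipy 1.17.1, numpy 2.4.6 and matplotlib 3.10.9 were used, and the tests and intervals were tested on simulated data for sequences with a mean of at least 10 normalized reads, which leaves out 3 of the 16, the 20-nt and C-first spi-miR6024 and spi-miR6025b_nta. The simulated data held counting error only, and their planted changes were larger than nearly all changes called here. Interval coverage first missed its limit in a small group of sequences, and passed in the present form with draws pooled.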

Additional observations from a re-analysis of the deposited data

Results flagged for a closer look

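The AET and MET libraries differed past the call rule at 4 of the 15 sequences tested, all lower in AET. Of all 599 sequences with reads, 9.52% were called lower and 11.9% higher. The log2 ratio of AET to MET was -1.27 for spi-miR6026, -1.21 for spi-miR6027-5p, -1.02 for spi-miR6026-p5 and -3.75 for the 20-nt spi-miR6024. The last rests on 14.5 and 1 reads at 1 of its 2 entries. The division of reads within a precursor differed between libraries in 4 tests. Only spi-miR6025_stu over spi-miR6025-p3_stu among them is a listed pair, and the others reuse sequences of miR6023 and miR6024. Over all listed pairs, 3.20% were called from NT to MET and 21.8% from MET to AET. The log2 odds ratio was -1.03 for spi-miR6023 over spi-miR6023-p3 from NT to MET. From MET to AET it was 1.06 for spi-miR6023 over spi-miR6023-p5, 1.10 for spi-miR6025_stu over spi-miR6025-p3_stu and 1.42 for spi-miR6024-5p_stu over the 21-nt spi-miR6024. How far 2 libraries of the same temperature would differ was not tested.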

How the results depend on the processing

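No paired analysis was possible because each temperature has 1 library, and for the same reason no replicate could be left out. Against the authors' scaling, the median log2 ratio of all sequences shifted by 0.42 (NT to MET), 0.14 (NT to AET) and -0.29 (MET to AET) when reads were scaled to valid reads, by -0.10, 0.01 and 0.11 under median-ratio scaling, and by -0.18, -0.06 and 0.12 without spi-miR166a. Of 66 counts of called sequences under the alternatives, 59 stayed within 1.5 times the count reported, those at exactly 1.5 times included. Some of the reported counts are 0 and some alternatives leave the log2 ratios as they were, so many of the 66 could hardly move. Without the fold threshold, 11 were higher from NT to MET (85 of all 605 sequences), 8 higher and 1 lower from NT to AET (123 and 70 of 597), and 3 higher and 7 lower from MET to AET (105 and 93 of 599). Under median-ratio scaling, and without spi-miR166a, 1 was higher from MET to AET. Without the threshold on the odds ratio, 2, 1 and 5 of the 8 pairs were called in these comparisons. Of the 5 listed pairs among them 1, 1 and 2 were called, where 11 of 125, 15 of 114 and 31 of 119 listed pairs were. With split reads rounded down, 2 pairs were called from NT to MET and 1 from NT to AET, where pairs with adjusted p of 0.0509 and 0.0510 by Fisher's exact test had missed the call. Of the 9 degradome sites, 1 had at least 2 reads and 0 had a p-value of at most 0.05. Some log2 ratios changed sign. Scaled to valid reads, they became 0.22 for spi-miR6024-5p_stu from NT to MET, 0.11 for spi-miR6026 from NT to AET, and -0.16, -0.25 and -0.14 for spi-miR6022, spi-miR6023-p3 and spi-miR6025_stu from MET to AET, where the sums of miR6022, of miR6023 and of both became -0.10, -0.050 and -0.079. From NT to MET, spi-miR6022-p5 became -0.058 under median-ratio scaling and -0.13 without spi-miR166a. From MET to AET, spi-miR6023-p5 became 0.00034 and 0.0046 on these scales. The cause was not tested. Depth limits miR6025, the rare forms of spi-miR6024 and all degradome sites.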
